A study of Mus musculus with 15 samples.

Results

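The loci described here hold 7 genes of the extracellular matrix, read in 5 windows of the mm9 mouse genome. The fibrillar collagen genes are Col1a1 (chr11:94750001-94850000), Col1a2 (chr6:4430001-4520000) and the neighbours Col3a1 and Col5a2 (chr1:45330001-45580000). The basement-membrane pair Col4a1 and Col4a2 lies in chr8:11180001-11450000, and Fbn1 in chr2:125100001-125350000. The windows are defined by gene and position, although they were picked with earlier results of these maps known, and together hold 480 bins of 2 kb out of 1236163 bins on the autosomes.

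Chromatin of isolated mouse hepatocytes was mapped by srHC-seq, in which fixed chromatin is sonicated and long, sonication-resistant DNA fragments are set against short ones. Knockout mice of postnatal day 14 (P14) had the genotype Alb-Cre;Ezh1-/-;Ezh2f/f, so that Ezh1 was absent from the whole animal and Ezh2 was removed by a Cre driven from the albumin promoter, which is active in hepatocytes. The other groups were wild-type (Wt) mice of 2 months and of P14, and each group had 5 mice (2 males and 3 females in the knockout and at 2 months, 3 males and 2 females in the P14 wild type). Each group is read as 1 pooled map that gives every stretch 1 of 3 classes: het for sonication-resistant, closed chromatin, euch for open chromatin, and int for what lies between them. There is thus no spread between animals to set a difference against, no test was possible, and the depth behind a call is unknown. The maps hold no expression values, so the hepatocyte label could not be checked against marker genes, and a state of all cells cannot be told apart from a mixture of cells. Any part of the unequal numbers of males and females in the differences was not tested.

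Type I and type III collagens form the fibrils that accumulate in a scarred liver, and type V collagen helps to start and limit those fibrils. Type IV collagen builds the network of basement membranes, and fibrillin-1 builds the microfibrils on which elastic fibres form. In the liver the fibril-forming collagens are made chiefly by stellate cells and other mesenchymal cells, and their genes are largely silent in hepatocytes. EZH1 and EZH2 are the alternative enzymes of Polycomb repressive complex 2, which places a repressive methyl mark on histone H3 and typically occupies promoters rich in CpG dinucleotides.

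The promoters of the loci differ in that sequence feature, and 3 of them are shown for this reason. The RefSeq table (build GRCm38.p6) held promoters of 300 bases for 5 of the 7 genes, namely Col1a2, Col3a1, Col4a1, Col4a2 and Fbn1. Below are the 250 bases before the annotated start, 5′ to 3′ on the strand of the gene, with each CpG in capitals.
Col3a1: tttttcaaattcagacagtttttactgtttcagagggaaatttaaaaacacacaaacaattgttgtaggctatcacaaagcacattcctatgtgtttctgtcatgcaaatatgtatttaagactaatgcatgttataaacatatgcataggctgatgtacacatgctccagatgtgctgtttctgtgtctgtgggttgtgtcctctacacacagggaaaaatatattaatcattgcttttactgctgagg
Col1a2: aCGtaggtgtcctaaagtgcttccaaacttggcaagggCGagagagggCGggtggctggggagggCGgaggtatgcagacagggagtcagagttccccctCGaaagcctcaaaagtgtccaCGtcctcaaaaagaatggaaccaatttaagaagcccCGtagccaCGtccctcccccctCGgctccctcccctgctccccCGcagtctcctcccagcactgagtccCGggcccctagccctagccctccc
Fbn1: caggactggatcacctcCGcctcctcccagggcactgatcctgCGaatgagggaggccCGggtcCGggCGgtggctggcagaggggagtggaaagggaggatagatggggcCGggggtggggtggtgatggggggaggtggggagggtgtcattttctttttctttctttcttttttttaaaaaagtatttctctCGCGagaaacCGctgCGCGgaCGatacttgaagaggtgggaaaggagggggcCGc

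The Col3a1 promoter, of the gene for the type III collagen chain, held 0 CpG in its 300 bases and had a G+C content of 37.7%. Col1a2, for the second chain of type I collagen, held 13 CpG, and Fbn1, for fibrillin-1, held 14. The promoters of Col4a1 and Col4a2, which encode the chains of the main type IV collagen, were the densest, with 37 and 33 CpG and a G+C content of 74.0% and 73.7%. More CpG than most promoters was thus the case for 4 of the 5, since the median of all 32851 promoters in the table was 7. The Col4a1 and Col4a2 promoters share 78 bases on opposite strands, because the genes start head to head. The letters TATAAA occurred on either strand in the promoter of Col3a1 alone among the 5, and in 13.6% of all promoters. CCAAT was found in those of Col1a2, Col4a1 and Col4a2 and in 37.4% of all promoters. GGGCGG was found in those of Col1a2, Col4a1, Col4a2 and Fbn1 and in 35.7% of all promoters. Of 40 other matrix, fibrosis and stellate-cell genes, 25 were in the table, with a median of 12 CpG and a range of 3 to 34. The table and the maps use different builds, so no promoter was placed in a bin of a map.

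The 5 windows did not share a state in hepatocytes of any group. Openness was scored as the percentage of bins in euch minus that in het, expressed as a fraction from -1 (all het) to 1 (all euch). In the P14 knockout the scores were 0.34 for Col1a1, 0.24 for Col1a2, 0.75 for Col3a1 and Col5a2, -0.13 for Col4a1 and Col4a2, and -0.83 for Fbn1. At 2 months they were -0.60, -0.16, 0.06, -0.33 and -1 in the same order. In the P14 wild type they were -1, 0.36, 0.78, -0.21 and -0.89. The window of Col3a1 and Col5a2 had the highest score of the 5 in all 3 maps. At 2 months this order did not hold with windows widened by 50 kb on each side, where it scored -0.13, Col1a2 -0.07 and Col4a1 with Col4a2 0.03. Fbn1 was the most closed in the knockout and at 2 months, and Col1a1 in the P14 wild type. Over all 480 bins, euch made up 45.4% in the knockout, 21.9% at 2 months and 38.1% in the P14 wild type, against 42.4%, 43.0% and 42.7% of all autosomal bins. Het made up 45.4%, 63.3% and 54.0%, against 46.0%, 46.2% and 45.4% of the autosomes. These totals depend on the windows pooled, and without the window of Col3a1 and Col5a2 the euch shares were 31.3%, 15.5% and 21.4%.

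**Figure D1:**
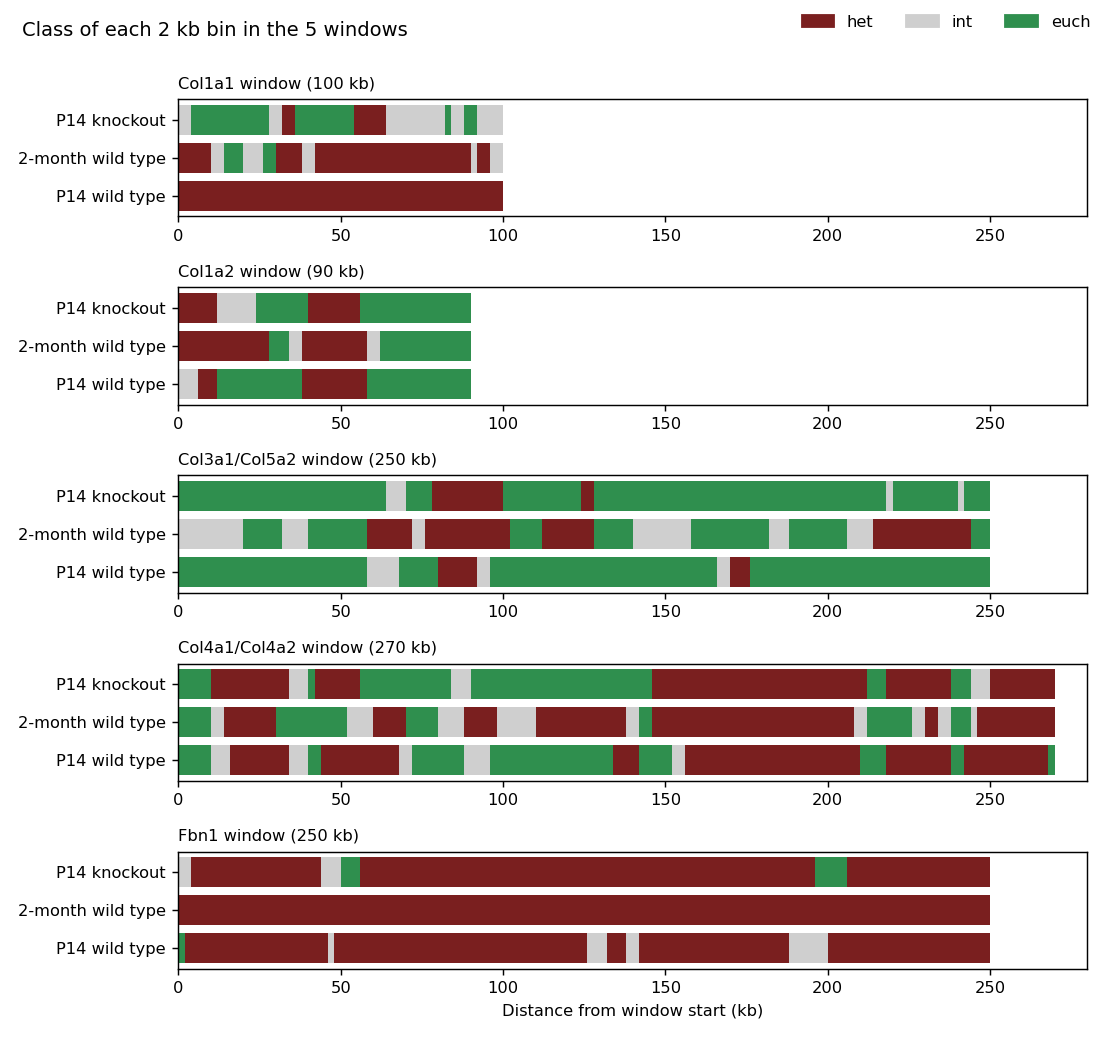
Class of each 2 kb bin (dark red het, grey int, green euch) against the distance from the window start in kb, with 1 bar for each pooled map, the P14 knockout on top, the 2-month wild type in the middle and the P14 wild type at the bottom. Col1a1 is het throughout in the P14 wild type and 48.0% euch in the knockout, and Fbn1 is het throughout at 2 months.

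**Figure D2:**
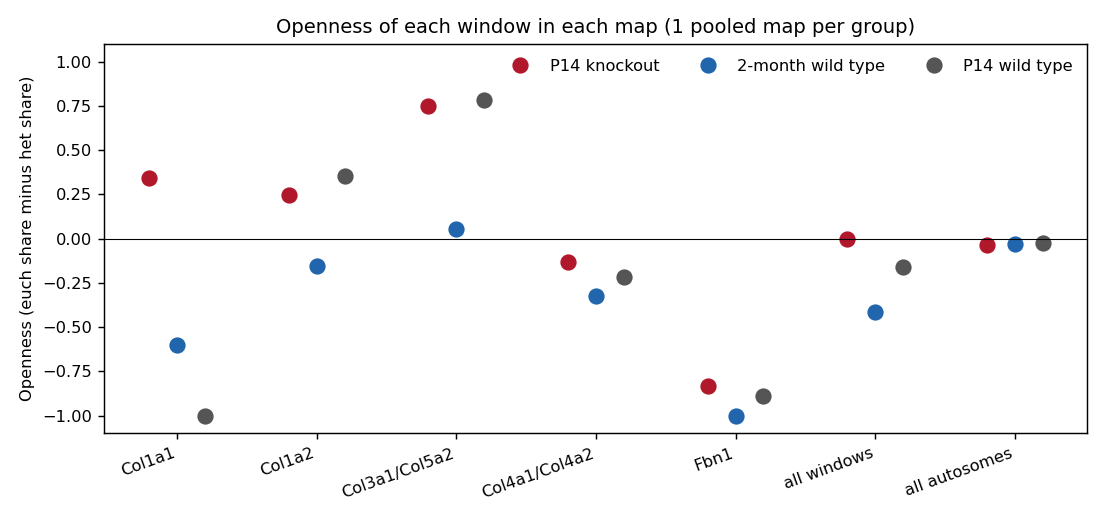
Openness (share of bins in euch minus share in het, from -1 to 1) of each window, of all windows pooled and of all autosomes, with 1 point for each pooled map and hence no error bar. The widest gap between knockout and P14 wild type is at Col1a1 (0.34 and -1), while the 3 autosomal points lie close to 0.

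The comparison of knockout with wild type at P14 asks what happens to these loci when hepatocytes lose both EZH enzymes. Col1a1, for the main chain of type I collagen, stood apart from the other windows. Its window of 100 kb was 48 kb euch, 38 kb int and 14 kb het in the knockout, and 100 kb het in the P14 wild type. Of its 50 bins, 43 (86.0%) were called more open in the knockout, where 12.1% of all autosomal bins were called more open and 12.5% more closed. All 50 were het in the P14 wild type, so that no bin of this window could be called more closed. Among autosomal bins that were het in the P14 wild type, 11.0% were euch and 8.35% int in the knockout. At Col1a1 these shares were 48.0% and 38.0%. Chromosome 11 as a whole had 14.5% more open bins and 9.45% more closed ones.

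Openness of the Col1a1 window was higher in the knockout by 1.34. Over the autosomes cut into 24712 tiles of the same length, 15.8% were higher by at least 0.25, which is the size at which a window is counted as called here. A difference of 1.34 or more was seen in 2 tiles, neither of them overlapping the window. Only tiles with more het than euch in the P14 wild type could differ by so much. Col1a1 was also set beside stretches with the same wild-type state. There were 1538 tiles of 100 kb that the P14 wild-type map called het throughout, and 1025 of them (66.6%) were het throughout in the knockout as well. The median euch share of these tiles in the knockout was 0%, and the highest was 46.0%, below the 48.0% of the Col1a1 window. The tiles start at multiples of 100 kb, and the window does not. A tile that joins the 50 kb before the window to the first part of the window is therefore among the 1538. The place of Col1a1 above the highest tile, and its rank among the 24712 tiles, thus depend on where the window was set. All of these values describe a single pair of maps.

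**Figure D3:**
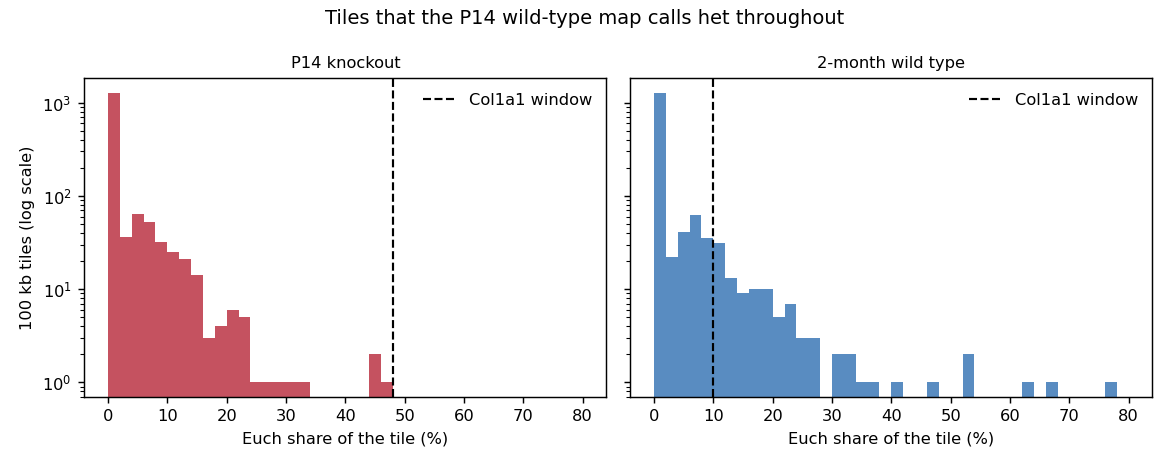
Number of 100 kb autosomal tiles (log scale) by their euch share in percent, among the 1538 tiles called het throughout in the P14 wild type, with the P14 knockout at left and the 2-month wild type at right. The dashed line marks the Col1a1 window, at 48.0% in the knockout, beyond the highest tile at 46.0%, and at 10.0% at 2 months, where the highest tile has 76.0%. The tiles lie on a fixed grid that the window does not follow, and a tile holding part of the window is among them.

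Within the Col1a1 window, 2 stretches of at least 10 kb were euch in the knockout and het in the P14 wild type, a kind of stretch that held 1.90% of all autosomal bins. The longer ran for 24 kb (chr11:94754001-94778000), and the other for 18 kb (chr11:94786001-94804000). They are separated by 4 kb of int and 4 kb of het. A het run of 10 kb followed (chr11:94804001-94814000), and the rest of the window was mainly int, with 2 short euch runs of 2 kb and 4 kb. In the P14 wild type the window was the second part of a single het domain of 200 kb (chr11:94650001-94850000), whose end coincides with the window's end.

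The higher openness of the knockout was not limited to the Col1a1 window. In the 50 kb before it the score was -0.56 in the knockout and -1 in the P14 wild type, and in the 50 kb after it 0.32 and -0.40. In the rest of the surrounding 1 Mb the score was 0.27 in the knockout and -0.14 in the P14 wild type. With the window widened by 50 kb on each side, openness was higher in the knockout by 0.96. By RefSeq order the protein-coding neighbours of Col1a1 are Gm11544 and Sgca, and the calls for the window cover flanking sequence as well as Col1a1 itself.

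**Figure D4:**
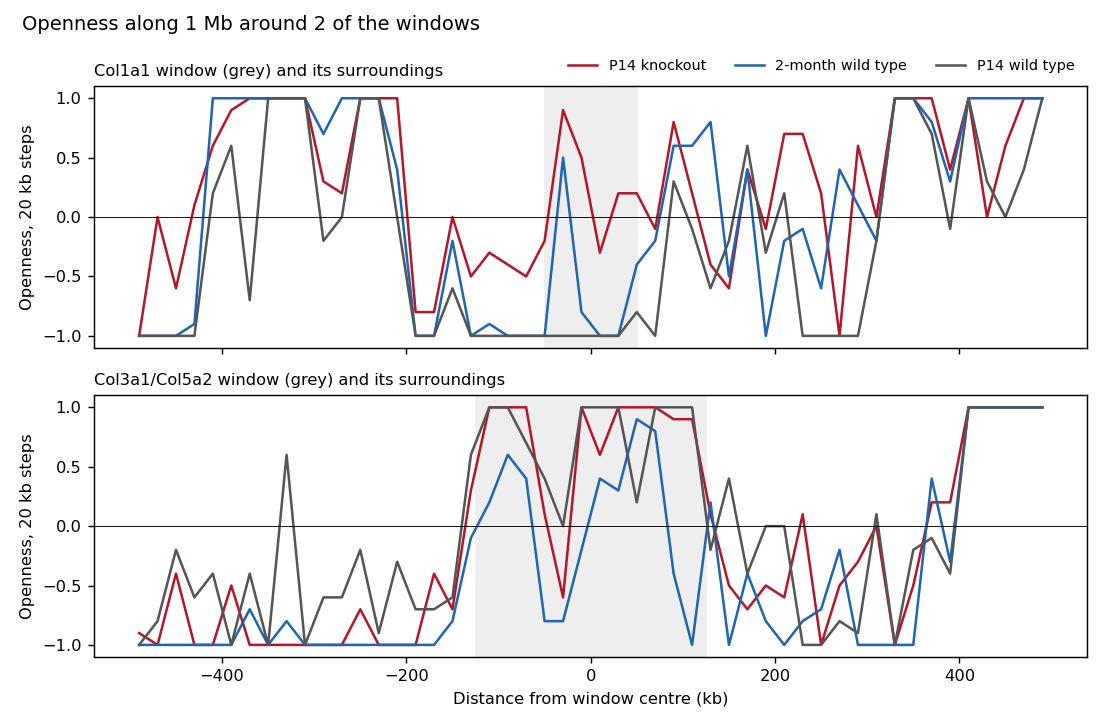
Openness in steps of 20 kb (from -1 to 1) against the distance in kb from the centre of the Col1a1 window (top) and of the Col3a1 and Col5a2 window (bottom), with 1 line for each pooled map and the window in grey. Across the Col1a1 window the P14 knockout line lies above that of the P14 wild type, and in the lower panel the 2-month line lies below the P14 wild-type line over most of the window.

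None of the other 4 windows differed between knockout and wild type of P14 by 0.25 or more in openness. Col1a2, whose product pairs with that of Col1a1 in type I collagen, was at 55.6% euch in the knockout and 64.4% in the P14 wild type. Its het share was 31.1% and 28.9%. The difference in openness was -0.11 (0.08 with the window narrowed by 20 kb on each side), and 17.0% of 27461 tiles of 90 kb were lower by at least 0.25. Of its 45 bins, 9 (20.0%) were called more closed and 2 (4.44%) more open, against 12.5% and 12.1% of autosomal bins. Of the 29 bins that were euch in the wild type, 0 were het in the knockout, against 12.8% of such bins on the autosomes. The windows of the genes for both chains of type I collagen were thus in different states in the P14 wild type, with 0% of the Col1a1 window and 64.4% of the Col1a2 window in euch.

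Col3a1 and Col5a2, for the type III and a type V chain, shared the window with the most euch. It was 214 kb of 250 kb in both P14 maps, and het was 26 kb in the knockout and 18 kb in the wild type. Openness differed by -0.03 (0.016 once domains under 5 kb were replaced by their neighbour), where 14.4% of 9881 tiles of 250 kb were lower by at least 0.25. The euch run of 90 kb in the knockout (chr1:45458001-45548000) covered a stretch that in the wild type was broken by 4 kb of int and 6 kb of het. The central het run was 22 kb long in the knockout (chr1:45408001-45430000) and 12 kb in the wild type (chr1:45410001-45422000).

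Col4a1 and Col4a2 were mixed, with 108 kb of 270 kb in euch in the knockout and 92 kb in the P14 wild type. Openness was higher in the knockout by 0.08, and 11.5% of 9148 tiles of 270 kb were higher by at least 0.25. A stretch of 12 kb (chr8:11236001-11248000) was euch in the knockout and het in the wild type, the only one of at least 10 kb outside Col1a1 in this comparison. The longest euch run was 56 kb in the knockout (chr8:11270001-11326000) and 38 kb in the wild type (chr8:11276001-11314000). The knockout run spans 8 kb (chr8:11314001-11322000) that were het in the wild type.

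Fbn1 was closed in both, with 89.6% het in the knockout and in the P14 wild type. Openness differed by 0.06, where 11.1% of 9881 tiles of 250 kb were higher by at least 0.25, and the sign turned (-0.06) when the window was widened by 50 kb. Euch covered 16 kb in the knockout, in runs of 6 kb and 10 kb, and 2 kb in the wild type. The run of 10 kb (chr2:125296001-125306000) overlapped the longest int run of the wild type (chr2:125288001-125300000).

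Over all windows, 83 of 480 bins (17.3%) were called more open in the knockout, against 12.1% of autosomal bins, and 42 (8.75%) more closed, against 12.5%. The first count rested on Col1a1. In the other 4 windows 40 of 430 bins (9.30%) were called more open and 42 (9.77%) more closed, both under the autosomal shares. Over all 5 windows, 4.98% were called more closed once bins at the edge of a P14 wild-type domain were left out. No autosomal share without such bins is available to set beside it. Stretches of at least 10 kb that were euch in the knockout and het in the P14 wild type numbered 3 and totalled 54 kb, of which 42 kb lay at Col1a1. They held 5.62% of the bins of the windows and 1.90% of autosomal bins. Stretches that were het in the knockout and euch in the wild type numbered 0, and on the autosomes they held 2.29% of bins.

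**Figure D5:**
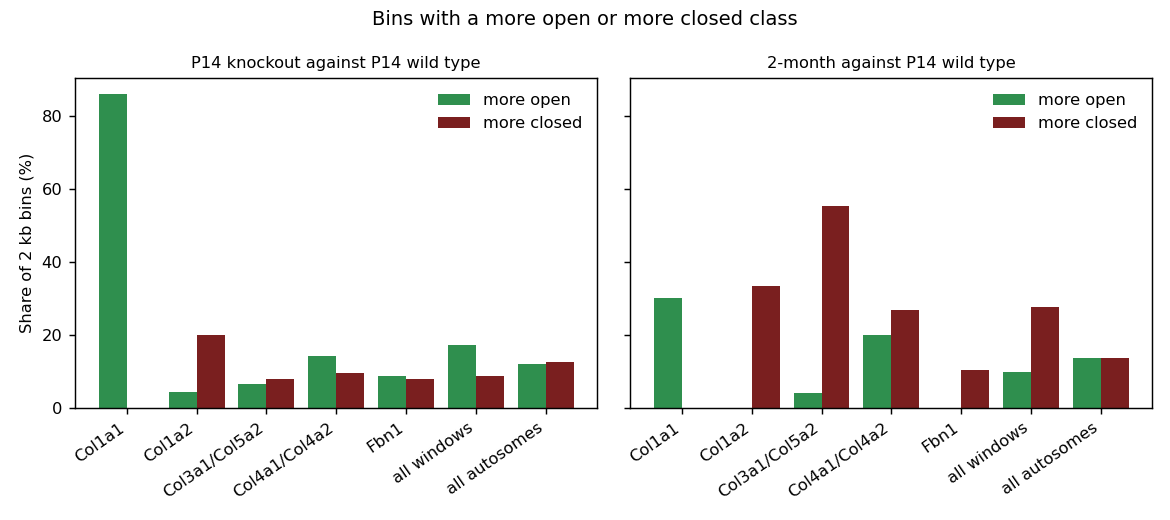
Share of 2 kb bins (percent) called more open (green) or more closed (dark red) than in the P14 wild type, in the P14 knockout at left and in the 2-month wild type at right, for each window, all windows and all autosomes. Col1a1 has 86.0% more open bins in the knockout, and the window of Col3a1 and Col5a2 has 55.2% more closed bins at 2 months.

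The comparison of 2-month with P14 wild type asks how the loci differ as the liver matures. It uses the same P14 wild-type map, so any error of that map enters both comparisons. The windows of Col3a1 with Col5a2 and of Col1a2 were more closed at 2 months, Fbn1 was fully closed, and Col1a1 was somewhat more open.

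In the window of Col3a1 and Col5a2, euch covered 100 kb at 2 months and 214 kb at P14. Int covered 64 kb and 18 kb, and het 86 kb and 18 kb. Of 125 bins, 69 (55.2%) were called more closed at 2 months and 5 (4.00%) more open, where 13.7% of autosomal bins were called more closed and 13.6% more open. Of the 107 bins that were euch at P14, 30 (28.0%) were het and 32 int at 2 months. Het took 16.1% of such bins on the autosomes and 19.9% on chromosome 1, and int took 34548 of 528200 on the autosomes. Of all bins of chromosome 1, 16.8% were more closed. Openness differed by -0.73, and 22.4% of tiles of 250 kb were lower by at least 0.25. A difference as low as this or lower was seen in 508 of 9881 tiles (5.14%).

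The more closed calls at Col3a1 and Col5a2 were spread over the window. At 2 months euch lay in 7 runs of at most 24 kb, and in the P14 wild type in 4 runs of up to 74 kb. One stretch of 30 kb was het at 2 months and euch at P14 (chr1:45544001-45574000), and 86.7% of it was euch in the knockout. Another of 16 kb (chr1:45442001-45458000) was 75.0% euch in the knockout. The rest of the surrounding 1 Mb had an openness of -0.57 at 2 months and -0.29 at P14, a smaller difference than inside the window. With the window widened by 50 kb on each side, the score at 2 months was -0.13.

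Col1a2 was 37.8% euch at 2 months and 64.4% at P14, and 53.3% against 28.9% het. Of its bins, 15 (33.3%) were called more closed and 0 more open, against 13.7% and 13.6% of autosomal bins. Openness differed by -0.51, and 23.1% of tiles of 90 kb were lower by at least 0.25. Most of the difference lay in the first part of the window. A stretch of 16 kb (chr6:4442001-4458000) was het at 2 months and euch at P14, and in the knockout it was 75.0% int and 25.0% euch. In the second part, euch ran over the last 28 kb of the window at 2 months and over the last 32 kb at P14, and the het run before it (chr6:4468001-4488000) had the same ends at both ages. In the 50 kb before the window, openness was -0.80 at 2 months and 0.04 at P14, whereas in the 50 kb after it the values were 0.80 and 0.76.

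Col1a1 was 10.0% euch, 20.0% int and 70.0% het at 2 months, and 100% het at P14. Of its 50 bins, 15 (30.0%) were called more open, against 13.6% of autosomal bins, and with all 50 het at P14 no bin could be called more closed. Among autosomal bins that were het in the P14 wild type, 14.2% were euch and 8.07% int at 2 months. The euch share of Col1a1 was thus under that of such bins, and its int share above it. Openness was higher by 0.40 (0.26 once domains under 5 kb were replaced), and 23.8% of tiles of 100 kb were higher by at least 0.25. A difference of 0.40 or more was seen in 3787 of 24712 tiles (15.3%). The surroundings differed by a similar amount, with an openness of 0.17 at 2 months and -0.14 at P14 in the rest of the surrounding 1 Mb, and of 0.08 and -0.40 in the 50 kb after the window. In the 50 kb before it both maps were het throughout. Of the bins of chromosome 11, 16.6% were called more open at 2 months. Euch at 2 months came in runs of 6 kb and 4 kb, 8 kb of which lay inside the longer stretch that was euch in the knockout. In the other knockout stretch (chr11:94786001-94804000) the 2-month map had 14 kb of het, 4 kb of int and 0 kb of euch. A het run of 48 kb (chr11:94792001-94840000) took up much of the rest of the window at 2 months.

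Col4a1 and Col4a2 had calls in both directions at 2 months. Euch was 24.4% at 2 months and 34.1% at P14, and int was 18.5% and 10.4%. Of 135 bins, 36 (26.7%) were called more closed and 27 (20.0%) more open, against 13.7% and 13.6% of autosomal bins. Openness differed by -0.11 (0.0054 with the window widened by 50 kb), and 22.6% of tiles of 270 kb were lower by at least 0.25. A stretch of 24 kb (chr8:11290001-11314000) was het at 2 months and euch at P14, and it was 100% euch in the knockout. A euch run of 22 kb (chr8:11210001-11232000) was present at 2 months where the P14 wild type was mostly het or int. The large het run in the second part of the window was present in all 3 maps, with 66 kb in the knockout, 62 kb at 2 months and 54 kb in the P14 wild type. Outside the window the chromatin was open, with 88.8% euch at 2 months and 68.5% at P14 in the rest of the surrounding 1 Mb. The window's score accordingly was 0.03 at both ages once it was widened by 50 kb on each side.

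Fbn1 was het in all 125 bins at 2 months, inside a het domain of 256 kb (chr2:125098001-125354000) that holds the whole window. At P14 it was 89.6% het and 9.60% int, and openness differed by -0.11. Of its bins, 13 (10.4%) were called more closed and 0 more open, against 13.7% and 13.6% of autosomal bins. Of the tiles of 250 kb, 22.4% were lower by at least 0.25. The domain ended close to both window edges. In the 50 kb before the window openness was 0.60 at 2 months and 0.92 at P14, and in the 50 kb after it -0.56 and -0.20.

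Over all windows, 133 of 480 bins (27.7%) were called more closed at 2 months, against 13.7% of autosomal bins, and 47 (9.79%) more open, against 13.6%. Without the window of Col3a1 and Col5a2, 18.0% were called more closed, and without that of Col4a1 and Col4a2, 5.80% were called more open. Of the 183 bins that were euch in the P14 wild type, 56 (30.6%) were het at 2 months, against 16.1% of euch bins on the autosomes, and 11 (6.01%) were het in the knockout, against 12.8%. Stretches of at least 10 kb that were het at 2 months and euch at P14 numbered 4 and totalled 86 kb. They held 8.96% of the bins of the windows and 3.96% of autosomal bins. Stretches that were euch at 2 months and het at P14 numbered 0, and on the autosomes they held 3.39% of bins.

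The same class in all 3 maps was found for 250 of 480 bins (52.1%), against 65.0% of autosomal bins. Of the 250 bins, 171 were het, 79 euch and 0 int, and 103 of the het ones lay at Fbn1. Of the 804007 such bins on the autosomes, 389011 were het, 372802 euch and 42194 int. The share of bins with the same class was 14.0% at Col1a1, 40.8% at Col3a1 and Col5a2, 45.2% at Col4a1 and Col4a2, 62.2% at Col1a2 and 82.4% at Fbn1. Fbn1 therefore was the most constant of the 5 windows and Col1a1 the least. At Col1a1 the 7 constant bins were all het. The number of class runs per Mb over all windows was 47.9 in the knockout, 57.3 at 2 months and 42.7 in the P14 wild type, while on the autosomes it was 45.1, 34.5 and 49.1. At 2 months the windows were thus more finely divided than the autosomes, with Fbn1, a single run, as the exception. Col1a1 had 11 runs in 100 kb, and Col4a1 and Col4a2 had 22 runs in 270 kb.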

How the data were processed

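The deposited data were 9 lists of mm9 intervals, 1 for each class in each group. Per the submitters' processing notes, bcl2fastq 2.19.0.316, STAR 2.4.2a and bedtools were used; the caller of the domains and its thresholds are not given in the sources used here. That each list pools the 5 mice of its group was inferred from the sample descriptions, where the euch list is missing for 1 mouse of 2 months. The deposited score column is 0 throughout, so depth and signal are unknown, and how calls were scaled between maps is unknown too.

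Lists were put on a grid of 2 kb with Python 3.11.15 and NumPy 2.4.6, each bin taking the class that covers most of it. Classes were ordered het, int, euch, and a bin higher in that order than in the P14 wild type was called more open, a lower one more closed. Background shares came from all autosomal bins and from autosomal tiles as long as each window, with a call at a change of 0.25. All 7 genes and all het-to-euch or euch-to-het stretches of at least 10 kb are named. The procedure was tested on simulated data. The members, windows and lists were chosen with earlier results of these data known. RefSeq tables of build GRCm38.p6 gave promoters and neighbours by name only, and no position was moved between builds. Figures were drawn with Matplotlib 3.10.9.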

Additional observations from a re-analysis of the deposited data

How the results depend on the processing

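No paired analysis was possible because each group has 1 pooled map, and for that reason no replicate could be left out. A pooled share counts as moved here when it leaves the exact 95% binomial interval of its 480 bins, which treats bins as independent although neighbours are not. Of 100 recomputed pooled values, 24 moved, in most cases on leaving out a window. Without the Col3a1 and Col5a2 window, euch was 31.3% in the knockout, 15.5% at 2 months and 21.4% in the P14 wild type, and het 57.7%, 73.5% and 70.4%. More open bins were then 21.1% in the knockout, and more closed bins 18.0% at 2 months. Without Fbn1, euch was 59.2%, 29.6% and 51.3% in the same order of maps, het 29.9%, 50.4% and 41.4%, and at 2 months 13.2% of bins were more open and 33.8% more closed. Without Col1a1, het in the P14 wild type was 48.6% and more open bins in the knockout 9.30%. Without Col4a1 and Col4a2, more open bins at 2 months were 5.80%. With equal weight for each window, het in the knockout was 39.7% and more open bins there 23.9%. With windows widened by 50 kb on each side, euch at 2 months was 29.9% and het 57.3%. Without bins at P14 wild-type domain edges, more closed bins in the knockout were 4.98%. Narrowing windows by 20 kb and replacing domains under 5 kb moved none of the pooled shares. Of the recomputed window and autosomal values, 21 moved past the 95% interval of their main value and 62 did not. Under the 3 alternatives run on windows, no difference in openness past 0.25 turned its sign. That of Col1a1 at 2 months came near 0.25, with 0.32 when widened, 0.30 when narrowed and 0.26 with domains under 5 kb replaced. Smaller differences turned their sign once each. This was so at Col1a2, Col3a1 with Col5a2 and Fbn1 in the knockout (0.08, 0.016 and -0.06) and at Col4a1 with Col4a2 at 2 months (0.0054). Adding chromosome X or leaving out constant int runs kept the autosomal shares between 12.3% and 14.1%. Depth limits are unknown, since the lists hold no counts.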
